A study of Mus musculus with 16 samples.

Results

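Oxidative phosphorylation subunits are the proteins that build the respiratory chain and the ATP synthase of the inner mitochondrial membrane. The 78 genes described here encode the nuclear subunits of these enzymes, and they were chosen by gene symbol from the gene count table, which lists 22287 genes, of which 16769 had a count. The symbol had to match the subunit families of complex I (Nduf), complex II (Sdh), complex III (Uqcr), complex IV (Cox4 to Cox8) or complex V (Atp5), and the counts summed over the 16 libraries had to reach 100. Of 86 matching entries, 3 heart-type subunits (Cox6a2, Cox7a1 and Cox8b) were excluded by the rule and 5 entries fell under the count minimum. The remaining genes were divided into 36 of complex I, 4 of complex II, 8 of complex III, 13 of complex IV (with Ndufa4 and Cox7a2l placed there) and 17 of complex V. The summed count was thus a measured value used in the selection. Just inside the minimum was Cox6b2 with 156 counts, and just outside was Ndufa4l2 with 4 counts.

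The libraries came from bone marrow-derived macrophages (BMDMs) of C57BL/6J mice aged 8 weeks. Bone marrow cells were matured for 7 days with GM-CSF (GM) or M-CSF (M) on tissue culture-treated (TC) or untreated (noTC) plastic, and then received vehicle (steady state) or LPS, a bacterial cell wall component, for 3 h. At steady state the groups were named GM-TC and M-TC on treated plastic and GM-noTC and M-noTC on untreated plastic, and the ending -LPS marks the challenged cultures, which gave 8 groups with 2 libraries in each. According to the study's methods GM and M cultures were seeded at different densities, so growth factor and seeding density cannot be told apart. The cells were differentiated in culture from whole marrow.

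Complex I takes electrons from NADH and complex II takes them from succinate. Both pass them through ubiquinone to complex III and then through cytochrome c to complex IV, where oxygen is reduced. Complexes I, III and IV pump protons, and complex V uses the proton gradient to make ATP. Most subunits are encoded in the nucleus, and a small set in mitochondrial DNA. In macrophages the chain is best known for its change of use upon LPS, when succinate oxidation and the membrane potential can serve signalling more than ATP production.

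Library totals ran from 17527805 to 31458374 counts, and 3 counts corresponded to 0.0954 to 0.171 CPM (counts scaled to a common library total). All 78 genes passed the expression filter of the test and entered it with 12514 genes in all. Macrophage markers (Adgre1, Cd68, Csf1r, Itgam, Lyz2, Fcgr1, Mertk and Cd14) summed to 19543 to 45589 CPM, so macrophage transcripts were abundant in every library. On TC at steady state 3 of these 8 genes were called higher in GM than in M and 5 lower. Dendritic cell and neutrophil genes differed between GM and M and are given with the growth factor comparison. The sum of 19 heart muscle genes was 35.5 to 113 CPM in the 4 vehicle libraries from TC dishes and 0.914 to 1.79 CPM in the other 12 libraries. The 3 excluded heart-type subunits summed to 2.50 to 3.88 CPM in those same 4 libraries and 0.275 to 1.17 CPM elsewhere. The 78 genes summed to 3589 to 6145 CPM. How much heart muscle RNA added to the 78 genes was not tested, and the sum of 3 heart-type genes does not measure it. T and B cell genes reached at most 3.07 CPM, erythroid genes 0.97 CPM and fibroblast genes 13.4 CPM.

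The 2 GM-TC libraries differed from each other for these genes, and 2 libraries cannot show which of them is typical. In GM-TC replicate 2, 77 of the 78 genes were higher than in GM-TC replicate 1, with a median log2 difference of 0.24, while the median over all tested genes differed by 0.01. The median difference was 0.31 for the 33 genes with transcripts shorter than 700 nt and 0.12 for the 16 genes with transcripts of 1500 nt or more. In the other 7 groups the median difference between replicates ran from -0.13 to 0.05. Counts of called genes and medians of the comparisons with GM-TC are also given with 1 GM-TC library left out. Counts over several comparisons, counts by sign or fold and distances from all tested genes include both libraries unless stated. So do values of single genes and complexes.

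The scale of the values also mattered. TMM scaling (edgeR's trimmed mean of M values, which centres the bulk of genes) gave factors of 1.11 to 1.39 at steady state and 0.778 to 0.842 upon LPS. The summed CPM of the 78 genes by library size was 5490 and 6145 for GM-TC, 5352 and 5330 for GM-noTC, 4968 and 5084 for M-TC and 4898 and 4876 for M-noTC. Upon LPS it was 4546 and 4470 for GM-TC-LPS, 4390 and 4137 for GM-noTC-LPS, 3712 and 3589 for M-TC-LPS and 3789 and 3777 for M-noTC-LPS. As a share of the library the genes were lower in every LPS library than in any library at steady state. On the TMM scale the order turned, with group means ± SD of 5201 ± 484 in GM-TC against 5621 ± 49.2 in GM-TC-LPS, and of 3616 ± 54.0 in M-TC against 4658 ± 60.3 in M-TC-LPS (n = 2 each). Changes are therefore also given relative to the median of all tested genes, a distance that hardly depended on the scaling. In bulk RNA, fewer cells of a type and less RNA per cell cannot be told apart.

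**Figure D1:**
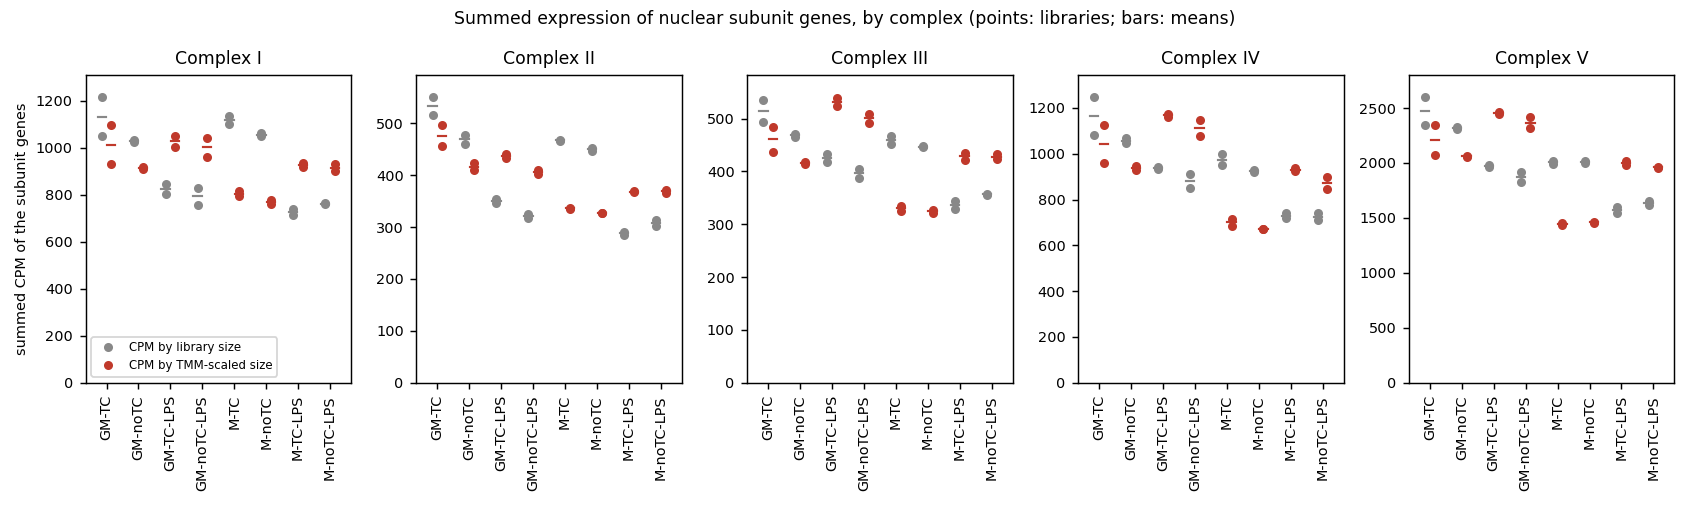
Summed CPM of the nuclear subunit genes of each complex (y axis) in each of the 8 groups (x axis), by library size (grey) and by TMM-scaled library size (red). Points are the 2 libraries of a group and short bars their means. By library size every complex was lower upon LPS, whereas on the TMM scale all 5 complexes of M were higher upon LPS, for example 1444 against 2003 CPM in complex V of M-TC and M-TC-LPS.

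Complex V held 39.7 to 44.1% of the summed CPM of the 78 genes, complex I 18.0 to 22.3%, complex IV 18.8 to 21.0%, complex III 8.73 to 9.52% and complex II 7.42 to 9.42%, over the 16 libraries. Compared per length, as TPM (transcripts scaled by length and library, median over libraries), the highest levels belonged to Atp5b at 578 TPM and Atp5a1 at 441 TPM, the catalytic beta and alpha subunits of the ATP synthase, with Cox8a at 456 TPM and Cox4i1 at 409 TPM from complex IV between and below them. The lowest were Ndufb2 at 9.18 TPM and Cox6b2 at 1.32 TPM. Ndufa5 followed at 14.8 TPM. The place of Ndufb2 depends on its assigned transcript length of 2413 nt. Its TMM-scaled values ran from 7.18 to 13.4 CPM, against 4.25 to 8.38 CPM for Ndufa5. The order of levels was thus led by complexes IV and V, and the gene at its foot was the paralog Cox6b2, known from testis.

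The growth factor comparison asked how GM differed from M on the same dish. On the TMM scale the summed level of each of the 5 complexes was higher in GM than in M at steady state. By library size complex I turned on noTC, at 1025 and 1032 CPM in GM-noTC against 1051 and 1061 CPM in M-noTC, and overlapped on TC. On TC dishes 64 of the 78 genes were higher in GM and 1 was lower by edgeR's quasi-likelihood test (adjusted p under 0.05), against a background of 32.6% of all tested genes higher and 28.9% lower. The median log2 fold change was 0.45, or 0.43 above the median of all tested genes. On noTC dishes 54 were higher and 2 lower (background 31.4% and 30.7%), with a median of 0.33, equal to its distance from the median of all tested genes.

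Upon LPS challenge the medians were smaller on the TMM scale and in the same direction, whereas with library size alone they were larger upon LPS, at 0.29 on TC and 0.14 on noTC, than at steady state, at 0.13 and 0.04. On TC dishes 42 genes were higher in GM-TC-LPS than in M-TC-LPS and 2 were lower (background 33.9% and 32.9%), with a median log2 fold change of 0.26. On noTC dishes 45 were higher and 2 lower (background 33.5% and 32.6%), with a median of 0.21. The 4 comparisons share no library. In all 4 of them 33 of the 78 genes (42.3%) were higher in GM, against 17.5% of all tested genes.

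By complex, the median log2 fold change of GM over M on TC at steady state was 0.66 for complex IV (12 of 13 genes higher, Cox6b2 among them), 0.54 for complex V (14 of 17), 0.50 for complex III (8 of 8), 0.36 for complex I (26 of 36) and 0.35 for complex II (4 of 4). On noTC it was 0.51 for complex V (15 of 17), 0.45 for complex IV (9 of 13), 0.37 for complex III (6 of 8), 0.28 for complex I (22 of 36) and 0.20 for complex II (2 of 4). Complexes III, IV and V were thus above complexes I and II on both dishes, a description with no test of the order.

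Sdhd encodes the small membrane anchor of complex II, which helps to hold the ubiquinone site. Its TMM-scaled values were 108 and 125 CPM in GM-TC, 98.9 and 102 CPM in GM-noTC, 53.8 and 52.2 CPM in M-TC and 52.8 and 50.7 CPM in M-noTC. The GM and M libraries did not overlap, and GM was higher on both dishes. The log2 fold change was 1.14 ± 0.06 (SE, adjusted p = 5.79e-13) on TC and 0.95 ± 0.06 (adjusted p = 8.72e-12) on noTC. The other subunits of complex II differed less. The flavoprotein Sdha had a log2 fold change of 0.42 on TC and 0.30 on noTC, both called. The iron-sulfur subunit Sdhb (0.28 and 0.04) and the other membrane anchor Sdhc (0.19 and 0.10) passed the test on TC only.

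Cox7b, a small accessory subunit of complex IV, measured 77.4 and 87.1 CPM in GM-TC and 78.5 and 74.5 CPM in GM-noTC. It measured 38.2 and 44.2 CPM in M-TC and 38.7 and 38.0 CPM in M-noTC. All 4 GM libraries were above all 4 M libraries at steady state, with a log2 fold change of 1.0 ± 0.07 on both dishes (adjusted p = 4.19e-11 on TC and 2.80e-11 on noTC). Upon LPS the separation remained, at 87.4 to 93.3 CPM in GM and 52.4 to 54.0 CPM in M. Cox8a, another small subunit of complex IV, was 0.98 ± 0.06 higher on the log2 scale on TC and 0.83 ± 0.06 on noTC. Cox5a, a nuclear subunit on the matrix side of the same enzyme, was 0.82 ± 0.09 higher on TC and 0.84 ± 0.09 on noTC.

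Core and catalytic subunits moved in the same direction by different amounts. For complex I on TC, log2 fold changes of GM over M were 0.68 for Ndufv1, which carries the NADH site, 0.53 for Ndufv2 and 0.47 for Ndufs1, all called. For complex III they were 0.33 for Uqcrc1 and 0.51 for Uqcrc2, its core proteins, and 0.63 for Uqcrfs1, the Rieske iron-sulfur protein. For complex IV they were 0.42 for Cox4i1 and 0.43 for Cox5b. For the ATP synthase they were 0.62 for Atp5a1 and 0.83 for Atp5b, whose values were 550 and 588 CPM in GM-TC against 318 and 320 CPM in M-TC.

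The 3 genes that encode the same mature c subunit of the ATP synthase rotor did not move alike. Atp5g1 measured 45.0 and 57.7 CPM in GM-TC against 29.3 and 28.8 CPM in M-TC, and Atp5g3 97.2 and 123 CPM against 61.9 and 66.9 CPM. Atp5g2 measured 43.3 and 53.7 CPM in GM-TC against 45.3 and 54.5 CPM in M-TC, so that its groups overlapped. The log2 fold changes on TC were 0.83 ± 0.09 for Atp5g1 (adjusted p = 3.96e-08), 0.78 ± 0.08 for Atp5g3 (adjusted p = 2.42e-08) and -0.04 ± 0.10 for Atp5g2 (adjusted p = 0.77). Atp5g2 passed the test in none of the 12 comparisons between 2 groups by edgeR.

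A pair of genes went the other way. Ndufa4, a subunit first assigned to complex I and now to complex IV, measured 24.0 and 25.9 CPM in GM-TC, 22.5 and 22.9 CPM in GM-noTC, 31.3 and 32.4 CPM in M-TC and 29.5 and 26.7 CPM in M-noTC. It was lower in GM in all 4 growth factor comparisons, with log2 fold changes of -0.35 ± 0.08 on TC and -0.30 ± 0.08 on noTC at steady state and of -0.53 ± 0.08 and -0.34 ± 0.08 upon LPS. Ndufs8, an iron-sulfur subunit of complex I, was lower in GM in 3 of the 4, by edgeR's test, at -0.32 ± 0.09 on noTC at steady state, -0.54 ± 0.10 on TC upon LPS and -0.31 ± 0.10 on noTC upon LPS. Its value on TC at steady state was -0.20 ± 0.10 (adjusted p = 0.0785).

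Cox6b2 had the largest fitted fold change, but on few reads. Its counts were 24 and 18 for GM-TC, 18 and 14 for GM-noTC, 3 and 7 for M-TC and 7 and 10 for M-noTC. It reached the count minimum mainly through the GM libraries and so had to differ, and it lends the comparison no support. It is among the genes counted as higher on TC at steady state and on both dishes upon LPS.

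Single libraries and the scaling moved these counts. Leaving out GM-TC replicate 2, the TC comparison gave 47 genes higher and 4 lower with a median of 0.30, and leaving out GM-TC replicate 1 it gave 70 higher and 1 lower with a median of 0.54. Scaling by library size alone gave 30 higher and 7 lower on TC and 24 higher and 11 lower on noTC at steady state, with medians of 0.13 and 0.04, while the distance from the median of all tested genes stayed at 0.42 and 0.33. On that scale the share of all tested genes called was not computed, and their median was -0.29 on both dishes. Markers of other cells differed too. Dendritic cell genes (Flt3, Zbtb46, Xcr1, Clec9a and Ccr7) summed to 47.1 to 66.1 CPM in GM and 1.05 to 3.54 CPM in M, neutrophil genes to 10.7 to 25.9 CPM in GM and 0.26 to 1.34 CPM in M, and cycling cell genes to 809 to 1067 CPM in GM and 1315 to 3057 CPM in M. Their part in the result was not tested.

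**Figure D2:**
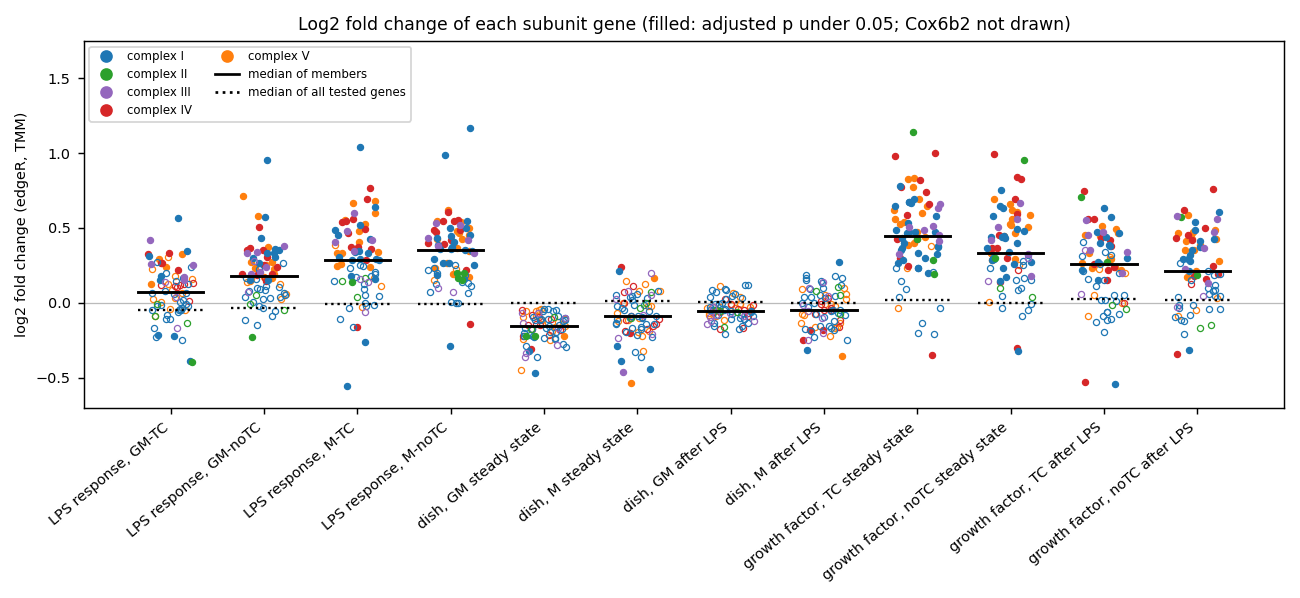
Log2 fold change (y axis, TMM scale) of each nuclear subunit gene except Cox6b2 in the 12 comparisons between 2 groups (x axis), coloured by complex and filled where the adjusted p was under 0.05. Solid lines are the medians of these genes and dotted lines the medians of all tested genes. Growth factor comparisons are GM over M, dish comparisons noTC over TC and LPS comparisons LPS over vehicle. The LPS values lie mostly above 0 here and turn below 0 with scaling by library size alone, at medians of -0.33 to -0.54. All tested genes then have medians of -0.53 to -0.83.

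The mitochondrially encoded subunits showed the same direction. The 13 protein genes of mitochondrial DNA were all higher in GM in all 4 growth factor comparisons, with median log2 fold changes of 1.17 on TC and 1.11 on noTC at steady state and of 1.1 and 0.90 upon LPS. By library size they summed to 69535 to 83484 CPM in GM and 39710 to 45219 CPM in M at steady state, and the ranges did not overlap. mt-Co1, the catalytic subunit of complex IV, measured 26831 and 28173 CPM in GM-TC and 12486 and 12014 CPM in M-TC on the TMM scale. The median of the 13 was thus above that of the 78 nuclear genes in each growth factor comparison. Libraries were made from poly(A)-selected RNA, and how well short mitochondrial poly(A) tails were captured was not tested.

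Genes of the chain that the symbol rule missed followed at steady state. Cyc1, the cytochrome c1 subunit of complex III, was 0.72 higher in GM on the log2 scale on TC and 0.38 on noTC. Ndufab1, the acyl carrier protein in complex I, was 0.34 and 0.16 higher. Atpif1, the inhibitor of ATP hydrolysis by complex V, was 0.47 and 0.23 higher. Cycs, the mobile electron carrier cytochrome c, was 1.05 higher on TC and 0.24 higher on noTC. Upon LPS Cycs was lower in GM, by -0.34 on TC and -0.45 on noTC.

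The upstream sequence of these genes was read from RefSeq windows of GRCm38.p6 that run from 250 bases before to 50 bases after the annotated start. Windows were found for 66 of the 78 genes, 64 by symbol and 2 by an older symbol, and the other genes were left out of the search. Both strands were searched for 9 short motifs of general, mitochondrial and inflammatory factors. The NRF1 motif was in 17 of the 66 (25.8%) and in 7.17% of protein-coding genes with a window. The ETS motif (CCGGAAG), which GABP binds, was in 17 (25.8%) against 12.9%, the YY1 motif (GATGGCGG) in 6 (9.09%) against 2.62% and the ERR motif (CAAGGTCA) in 4 (6.06%) against 1.56%. The GC box (GGGCGG) was in 27 (40.9%) against 49.2%, the TATA motif (TATAAA) in 6 (9.09%) against 14.8% and the CRE motif (TGACGTCA) in 4 (6.06%) against 2.54%. The ISRE motif was in 0 of 66 windows and 0.806% of coding genes. The NF-kB motif was in 0 of 66 windows and 0.177% of coding genes. None of the matches printed overlaps another, and a match is no more than a description of the letters in the window.

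The windows of 5 genes are shown for genes that lead a comparison, chosen after their values were seen, with NRF1, ETS, YY1 and ERR matches in capitals, each read 5′ to 3′ along the gene's own strand. Sdhd (minus strand, chr9:50603800-50604099) and Cox8a (minus strand, chr19:7217567-7217866) were among the genes furthest apart between GM and M. On the TMM scale Atp5o (minus strand, chr16:91931581-91931880) and Ndufs4 (minus strand, chr13:114388045-114388344) responded more to LPS in M. Ndufa4 (minus strand, chr6:11907401-11907700) was lower in GM.
Sdhd: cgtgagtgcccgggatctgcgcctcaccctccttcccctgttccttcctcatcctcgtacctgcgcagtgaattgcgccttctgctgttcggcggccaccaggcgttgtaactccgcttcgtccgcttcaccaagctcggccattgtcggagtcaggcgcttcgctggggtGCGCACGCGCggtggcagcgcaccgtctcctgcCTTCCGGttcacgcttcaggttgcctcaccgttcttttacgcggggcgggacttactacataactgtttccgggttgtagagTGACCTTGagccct
Cox8a: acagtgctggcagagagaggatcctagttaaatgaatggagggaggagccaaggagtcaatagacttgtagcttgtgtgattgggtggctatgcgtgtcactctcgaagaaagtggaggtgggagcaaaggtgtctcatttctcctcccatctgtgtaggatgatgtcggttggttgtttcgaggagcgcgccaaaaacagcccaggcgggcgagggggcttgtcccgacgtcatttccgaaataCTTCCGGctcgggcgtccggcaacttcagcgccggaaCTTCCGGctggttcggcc
Atp5o: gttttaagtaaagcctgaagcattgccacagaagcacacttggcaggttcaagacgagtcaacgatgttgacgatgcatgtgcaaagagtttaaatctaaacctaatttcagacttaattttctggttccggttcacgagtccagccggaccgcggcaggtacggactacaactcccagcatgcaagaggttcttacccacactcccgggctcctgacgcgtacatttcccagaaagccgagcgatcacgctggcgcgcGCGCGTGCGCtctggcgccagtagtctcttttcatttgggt
Ndufs4: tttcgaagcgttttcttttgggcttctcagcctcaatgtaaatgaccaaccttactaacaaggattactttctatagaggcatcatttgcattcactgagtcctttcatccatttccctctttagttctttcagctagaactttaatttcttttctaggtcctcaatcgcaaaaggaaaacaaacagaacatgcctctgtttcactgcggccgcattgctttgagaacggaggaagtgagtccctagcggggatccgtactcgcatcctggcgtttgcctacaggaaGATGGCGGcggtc
Ndufa4: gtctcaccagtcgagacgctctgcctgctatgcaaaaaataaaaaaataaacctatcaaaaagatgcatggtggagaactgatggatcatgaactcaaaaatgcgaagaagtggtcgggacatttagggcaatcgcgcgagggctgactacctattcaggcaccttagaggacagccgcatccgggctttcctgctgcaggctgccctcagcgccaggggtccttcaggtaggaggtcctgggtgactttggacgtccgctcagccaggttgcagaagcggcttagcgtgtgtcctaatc
The Sdhd window held an NRF1, an ETS and an ERR match, on either side of the annotated start. The Cox8a window held a pair of ETS matches, Atp5o an NRF1 match and Ndufs4 a YY1 match near its end. None of the motifs printed in capitals was found in the Ndufa4 window.

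The LPS comparison asked how each culture changed over 3 h. Relative to the bulk of genes, nuclear subunit genes were shifted upwards upon LPS, more in M than in GM, while as a share of the library they were lower. In GM-TC 19 genes rose and 4 fell on the TMM scale (background 32.8% higher and 34.2% lower), with a median log2 fold change of 0.07, and in GM-noTC 42 rose and 1 fell (background 33.6% and 34%), with a median of 0.18. In M-TC 46 rose and 3 fell (background 37.6% and 36.4%), with a median of 0.29, and in M-noTC 57 rose and 2 fell (background 36.4% and 35.9%), with a median of 0.35. With scaling by library size alone the directions turned, and 0 rose and 67 fell for GM-TC, 1 and 57 for GM-noTC, 0 and 72 for M-TC and 2 and 64 for M-noTC by edgeR. The share of all tested genes called on that scale was not computed. Their medians there were -0.53, -0.54, -0.83 and -0.73 in these 4 cultures. The subunit medians were less negative, at -0.41, -0.33, -0.54 and -0.37.

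Both scales gave the same place among all genes. The median of the nuclear subunit genes lay above the median of all tested genes by 0.12 for GM-TC, 0.21 for GM-noTC, 0.29 for M-TC and 0.36 for M-noTC on the TMM scale, and by 0.12, 0.21, 0.29 and 0.35 with library size alone. The share of genes that rose in GM-TC (24.4%) was below its background. The count of genes that fell was below its background in all 4 cultures. In all 4 cultures 18 of the 78 genes rose on the TMM scale (23.1%), near the 25% of all tested genes, and 0 fell, against 22.7% of all tested genes.

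Above 1.5-fold upon LPS with an adjusted p under 0.05 were 0 genes for GM-TC, 2 for GM-noTC, 8 for M-TC and 4 for M-noTC on the TMM scale. The share of all tested genes above that fold was not computed, so whether these counts are low is not known. By complex, the median log2 fold changes in M-TC on the TMM scale were 0.47 for complex IV (11 of 13 rose), 0.37 for complex III (5 of 8), 0.34 for complex V (13 of 17), 0.20 for complex I (16 of 36) and 0.14 for complex II (1 of 4). In GM-TC the medians were 0.16 for complex III, 0.13 for complex V, 0.12 for complex IV, -0.01 for complex I and -0.11 for complex II on the TMM scale. Complexes I and II were thus the lowest in both.

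Uqcrfs1, the Rieske protein of complex III, rose in each culture on the TMM scale. It measured 76.2 and 80.3 CPM in GM-TC and 104 and 105 CPM in GM-TC-LPS. It measured 50.5 and 50.5 CPM in M-TC and 76.9 and 75.8 CPM in M-TC-LPS. LPS libraries were above steady-state libraries on each dish, with log2 fold changes of 0.42 ± 0.05 for GM-TC, 0.38 for GM-noTC, 0.60 for M-TC and 0.52 for M-noTC. With library size alone the direction turned, and the log2 fold change in GM-TC was -0.06. By library size Uqcrfs1 went from 70.1 and 70.3 CPM in M-TC to 60.8 and 59.0 CPM in M-TC-LPS. It went from 71.8 and 69.9 to 63.2 and 59.5 CPM in M on noTC, and from 84.3 and 80.3 to 74.4 and 76.0 CPM in GM on noTC.

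Ndufs4, a complex I accessory subunit needed for the stability of its NADH-binding arm, measured 15 and 14.8 CPM in M-TC, 14.0 and 12.5 CPM in M-noTC, 24.0 and 22.2 CPM in M-TC-LPS and 25.4 and 26.9 CPM in M-noTC-LPS. Its GM values were 17.6 and 20.9 CPM in GM-TC, 18.6 and 17.3 CPM in GM-noTC, 22.3 and 22.1 CPM in GM-TC-LPS and 26.4 and 21.9 CPM in GM-noTC-LPS. On the TMM scale M libraries thus started below GM libraries and reached a similar level upon LPS. The log2 fold change was 0.99 ± 0.10 in M-noTC (adjusted p = 8.08e-09) and 0.64 in M-TC, and 0.43 in GM-noTC, all called, and 0.20 in GM-TC, not called. In M-noTC it was also called with library size alone, at 0.26. By library size the M-TC libraries, at 20.8 and 20.6 CPM, lay between the GM-TC libraries, at 19.9 and 23.2 CPM. On that scale Ndufs4 was lower upon LPS in M-TC-LPS, at 19.0 and 17.3 CPM, and in GM-TC-LPS, at 18.0 and 17.6 CPM.

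Ndufb1-ps had the largest rise in all 4 cultures, at log2 fold changes of 0.56 ± 0.11 for GM-TC, 0.95 ± 0.11 for GM-noTC, 1.04 ± 0.11 for M-TC and 1.17 ± 0.11 for M-noTC on the TMM scale. Its values were 10.6 to 19.2 CPM at steady state and 22.4 to 32.6 CPM upon LPS, with no overlap. The GENCODE annotation types this entry as a non-coding RNA from a bidirectional promoter, so that reads of a neighbour or of a coding copy cannot be told apart from it. It was above 0 with library size alone as well, at 0.08 in GM-TC to 0.44 in GM-noTC and M-noTC.

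Other genes that the rule of largest change named were short accessory subunits. Cox7a2 of complex IV rose by 0.77 ± 0.08 and Cox6a1 by 0.69 ± 0.07 in M-TC, and Atp5md, a small membrane subunit of the ATP synthase, by 0.58 ± 0.13 in GM-noTC and 0.62 ± 0.14 in M-noTC. Atp5k, another small membrane subunit, rose by 0.71 ± 0.18 in GM-noTC, and Ndufb6 of complex I by 0.35 ± 0.12 in GM-TC. With library size alone Cox7a2 (-0.06), Cox6a1 (-0.13), Ndufb6 (-0.13) and, in M-noTC, Atp5md (-0.11) turned below 0.

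Some genes fell on the TMM scale. Ndufv3, a small complex I subunit next to the NADH site, measured 24.2 and 24.5 CPM in M-TC and 17 and 16.1 CPM in M-TC-LPS. It measured 20.7 and 23.3 CPM in M-noTC and 17.4 and 18.9 CPM in M-noTC-LPS. It fell by 0.56 ± 0.11 on the log2 scale in M-TC, by 0.29 ± 0.11 in M-noTC and by 0.39 ± 0.11 in GM-TC, and its value in GM-noTC was -0.09, not called. Sdhd fell in GM, from 108 and 125 to 88.9 and 88.5 CPM on TC (-0.40 ± 0.06, adjusted p = 8.09e-06) and from 98.9 and 102 to 88.1 and 82.8 CPM on noTC (-0.23 ± 0.06, adjusted p = 0.00255). In M its log2 fold change on the TMM scale was 0.04 on TC, not called, and 0.15 on noTC, called higher, while by library size it went from 74.7 and 72.7 to 42.8 and 42.5 CPM on TC and from 73.2 and 69.4 to 47.9 and 47.8 CPM on noTC.

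Cox7a2l, known for joining complexes III and IV into supercomplexes, had log2 fold changes of -0.16 ± 0.06 in M-TC and -0.14 ± 0.06 in M-noTC, both called. Ndufa6 fell by 0.26 ± 0.11 in M-TC and Ndufa8 by 0.22 ± 0.09 in GM-TC, both accessory subunits of complex I. Ndufa8 lost its call (adjusted p = 0.044) under 5 of the alternative settings while keeping its direction, and Ndufa6 and, in M-noTC, Cox7a2l under DESeq2. Ndufv2 was the fourth gene that fell in GM-TC, at -0.22.

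**Figure D3:**
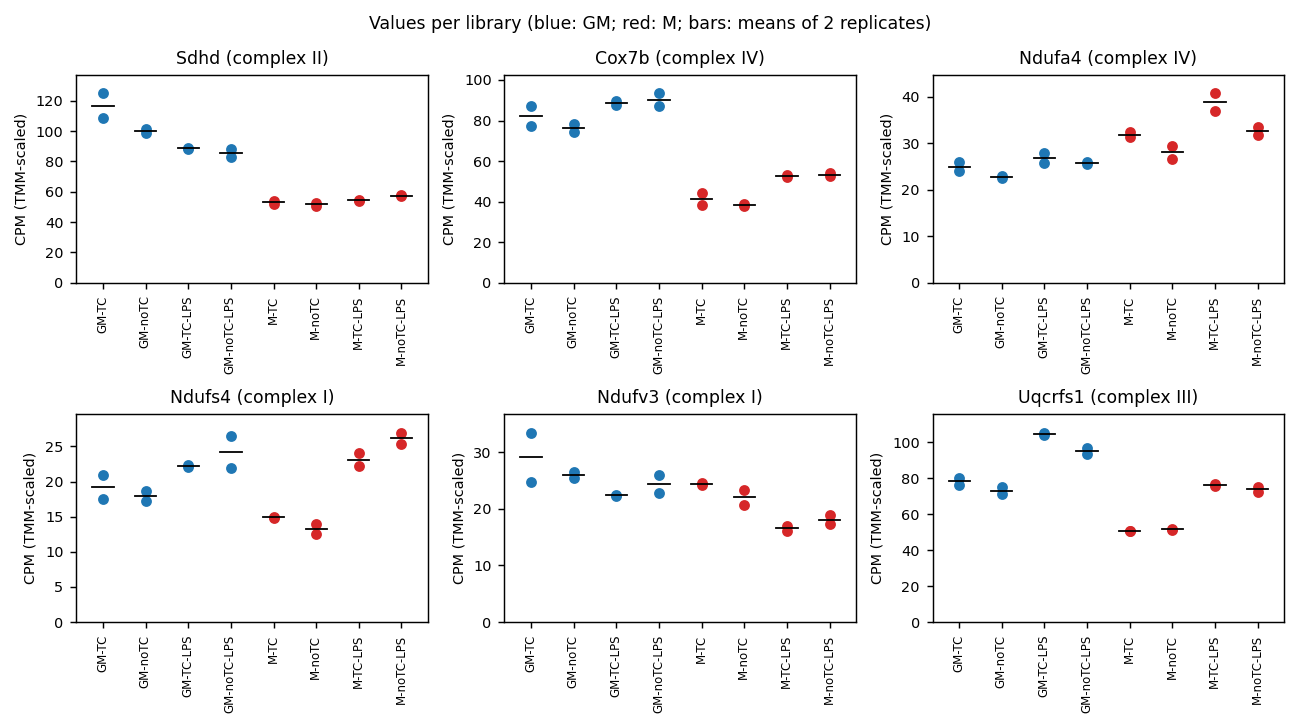
TMM-scaled CPM (y axis, from 0) of 6 nuclear subunit genes in the libraries of the 8 groups (x axis), with GM in blue, M in red and bars at the mean of 2 replicates. Sdhd and Cox7b are higher in every GM library than in any M library, Ndufa4 is lower in GM on each dish at steady state and upon LPS, Ndufs4 and Uqcrfs1 are higher upon LPS in M on this scale, and Ndufv3 is lower upon LPS in M.

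Counts upon LPS depended on single libraries in some cultures. In GM-TC 40 genes rose and 1 fell without GM-TC replicate 2, 8 rose and 13 fell without GM-TC replicate 1, and 8 and 11 rose without GM-TC-LPS replicate 1 or 2. In GM-noTC 15 rose and 2 fell without GM-noTC-LPS replicate 1. In M-TC 1 gene fell without M-TC replicate 2 or M-TC-LPS replicate 1, and in M-noTC 0 or 1 fell without any 1 of its libraries. Short transcripts of other genes moved as well. Among 251 tested genes that are no subunits and have transcripts under 700 nt, the median log2 fold change was 0.14 for GM-TC, 0.21 for GM-noTC, 0.23 for M-TC and 0.30 for M-noTC, against 0.14, 0.26, 0.29 and 0.42 for the 33 subunit genes of that length. For transcripts of 1500 nt or more it was -0.05 to -0.06 for other genes and 0.01, 0.13, 0.31 and 0.34 for the 16 subunit genes. In GM-TC and M-TC the heart muscle genes were also called lower upon LPS for 17 of 17 tested genes. The part of transcript length and of the heart muscle genes in the result was not tested.

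The mitochondrially encoded genes and the genes missed by the rule were measured beside them. Of the 13 mitochondrial genes 11 rose for GM-TC, 13 for GM-noTC, 10 for M-TC and 13 for M-noTC on the TMM scale, at medians of 0.24, 0.35, 0.31 and 0.52, and by library size their sum was lower upon LPS in each culture. Cycs rose in every culture, at log2 fold changes of 0.75 for GM-TC, 0.89 for GM-noTC, 2.15 for M-TC and 1.58 for M-noTC. Its values went from 46.4 and 42.9 CPM in M-TC to 193 and 203 CPM in M-TC-LPS. Of the 48 tested assembly factors, the proteins that help to build the complexes, 8 rose and 19 fell for GM-TC, 8 and 19 for GM-noTC, 13 and 21 for M-TC and 10 and 17 for M-noTC, at medians of -0.21, -0.27, -0.20 and -0.11, beside 34.2%, 34%, 36.4% and 35.9% of all tested genes that fell.

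The test of the difference of responses asked whether LPS acted alike in GM and M. The response was lower in GM than in M for most nuclear subunit genes on both dishes. On TC 72 of the 78 genes had a lower response in GM, of which 23 passed edgeR's test (41.1% of all tested genes passed in either direction), and 0 passed with a higher response in GM. On noTC 63 had a lower response and 9 passed, with 1 passing in the other direction (background 36.2%). The median difference of log2 responses was -0.20 on TC and -0.16 on noTC, and -0.16 and -0.14 relative to all tested genes. With library size alone the medians turned to 0.14 and 0.06 and 6 and 3 genes passed, while the distance from the median of all genes stayed at -0.16 and -0.13. On the TMM scale the share of subunit genes that passed was below the background on both dishes. With library size alone that background was not computed.

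On TC the largest differences were those of Atp5o (-0.55 ± 0.10, adjusted p = 0.000158), the subunit at the stalk that ties the catalytic head of the ATP synthase to its stator, Ndufa9 (-0.53 ± 0.10, adjusted p = 0.000234), a complex I subunit at the joint of its arms, and Cox7a2 (-0.50 ± 0.11, adjusted p = 0.0006). Atp5o measured 55.6 and 56.1 CPM in M-TC and 83.2 and 80.7 CPM in M-TC-LPS. In GM it measured 76.4 and 92.6 CPM in GM-TC and 85.7 and 84.3 CPM in GM-TC-LPS. On the TMM scale the M libraries moved up without overlap and the GM libraries overlapped. By library size Atp5o moved down in both, from 77.2 and 78.1 CPM in M-TC to 65.7 and 62.7 CPM in M-TC-LPS. In GM it went from 86.3 and 103 CPM to 68.9 and 67.4 CPM. On noTC the largest differences were those of Ndufs4 (-0.55 ± 0.14, adjusted p = 0.00318), Cox5a (-0.39 ± 0.12, adjusted p = 0.0164) and Sdhd (-0.38 ± 0.09, adjusted p = 0.00185). Cox7a2l was the gene that passed in the other direction on noTC, at 0.29.

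GM-TC entered this test with its replicate 2, which differed from its replicate 1 for these genes. Without GM-TC replicate 2, 14 genes passed on TC with a median of -0.09, without GM-TC replicate 1, 43 passed with a median of -0.31, and without M-TC replicate 1, 13 passed. On noTC, where that library does not enter, 6 passed without GM-noTC replicate 1 or GM-noTC-LPS replicate 2 and 5 without M-noTC replicate 2. All 6 named differences kept their sign with library size alone, at -0.16 to -0.34, and none was then called.

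**Figure D4:**
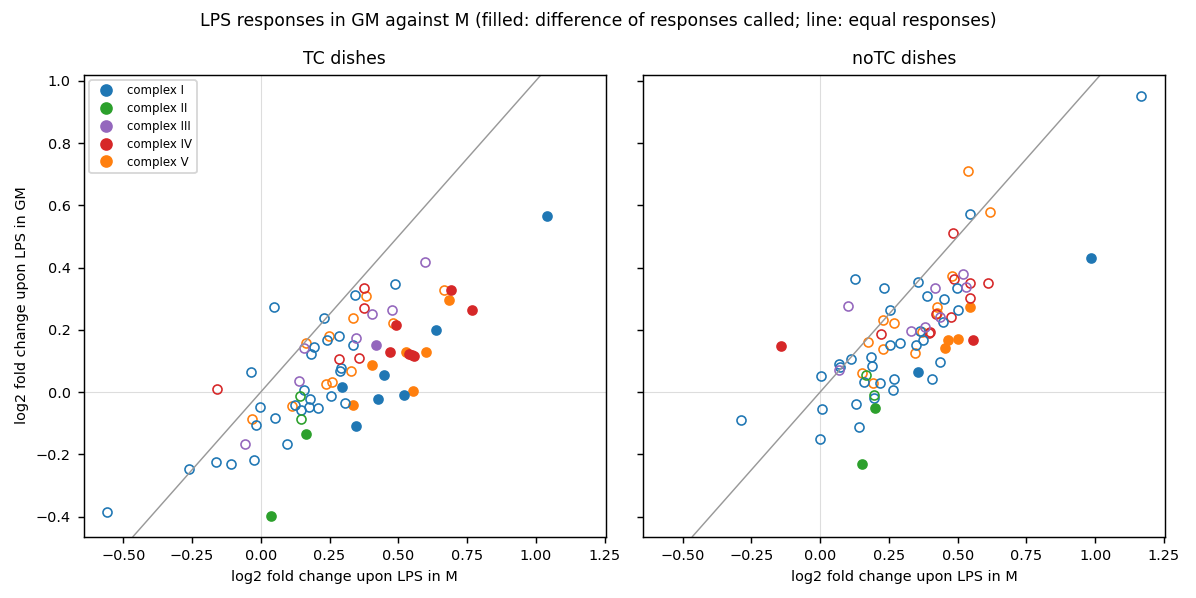
Log2 fold change upon LPS in GM (y axis) against that in M (x axis), for each nuclear subunit gene except Cox6b2 on TC (left) and noTC (right) dishes on the TMM scale, coloured by complex. Filled points passed the test of the difference of responses (23 on TC and 10 on noTC), and the line marks equal responses. Most points lie below the line, and with library size alone the median difference of responses is 0.14 on TC and 0.06 on noTC.

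The dish comparison asked whether noTC plastic changed these genes. In GM at steady state all 78 genes had a negative log2 fold change of noTC over TC, with a median of -0.16, and 6 passed the test as lower and 0 as higher (background 2.85% lower and 4.69% higher). The size of this shift depended on which GM-TC library was kept, and which of the 2 is typical cannot be told. Without GM-TC replicate 2 the median was -0.04. Without GM-TC replicate 1 the median was -0.27. The genes that the rule named were Ndufa1 (-0.47 ± 0.12, adjusted p = 0.0159), an early assembled membrane subunit of complex I, Ndufv2 (-0.32 ± 0.08, adjusted p = 0.0188) and Cox7a2l (-0.31 ± 0.06, adjusted p = 0.00245). Without GM-TC replicate 2 their log2 fold changes were -0.32 for Ndufa1, -0.13 for Ndufv2 and -0.21 for Cox7a2l. Ndufa1 measured 12.7 and 15.3 CPM in GM-TC and 9.66 and 10.6 CPM in GM-noTC. Cox7a2l measured 138 and 158 CPM in GM-TC and 123 and 117 CPM in GM-noTC. Neither pair of groups overlapped. The LPS comparison of GM-TC shares its steady-state libraries.

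In M at steady state the median was -0.09, with 6 genes lower and 3 higher (background 11.1% and 16.1%). With only the libraries of this comparison 22 were lower and 5 higher, and with no expression filter 11 were lower. Lower on noTC were Atp5mpl (-0.53 ± 0.12, adjusted p = 0.00175), a small proteolipid of the ATP synthase, Uqcrh (-0.46 ± 0.10, adjusted p = 0.000976), the hinge protein of complex III, and Ndufb1-ps (-0.44 ± 0.12). Atp5mpl measured 25.6 and 26.8 CPM in M-TC and 18.4 and 17.9 CPM in M-noTC. Higher were Cox6a1 (0.24 ± 0.07), Ndufa9 (0.21 ± 0.07) and Atp5b (0.17 ± 0.05, adjusted p = 0.0105), the last at 318 and 320 CPM in M-TC and 358 and 358 CPM in M-noTC. Without M-TC replicate 1 or 2, or M-noTC replicate 2, 0 genes were higher, and 1 without M-noTC replicate 1. Without M-TC replicate 2, 3 genes were lower.

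Upon LPS 0 of the 78 genes differed between dishes in GM by edgeR (background 0.727% lower and 2.08% higher), with 4 at an unadjusted p under 0.05, and DESeq2 called 0 as well. In M 5 were lower and 1 higher (background 12.9% and 10.4%). They included Atp5e (-0.36 ± 0.11), the epsilon subunit of the ATP synthase, Ndufb1-ps (-0.32 ± 0.11) and Ndufa4 (-0.25 ± 0.08), and Ndufv2 (0.28 ± 0.09) was higher. Without single libraries of that comparison 0 to 3 genes were lower and 0 higher (0 lower without M-TC-LPS replicate 2 or M-noTC-LPS replicate 1, 2 without M-TC-LPS replicate 1 and 3 without M-noTC-LPS replicate 2), and with library size alone 0 were lower and 4 higher. The difference of LPS responses between dishes passed for 0 genes in GM and 0 in M (background 0.783% and 10.6%), with 3 and 4 at an unadjusted p under 0.05 and 0 by DESeq2, and for 6 genes in GM without GM-TC replicate 1. In M it passed for 1 gene without M-noTC-LPS replicate 1.

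Length and markers moved with the dish comparison too. In GM at steady state the median was -0.17 for the 33 subunit genes with transcripts under 700 nt and -0.11 for the 16 with 1500 nt or more, against -0.08 and 0.01 for other genes of these lengths. The heart muscle genes, highest in TC libraries at steady state, were called lower on noTC for 17 of 17 tested genes in both GM and M. The cycling cell genes were called higher on noTC for 12 of 12 in M and 3 of 12 in GM at steady state. Of the 13 mitochondrial genes 8 were lower on noTC in GM and 4 in M at steady state. The part of these in the result was not tested.

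**Figure D5:**
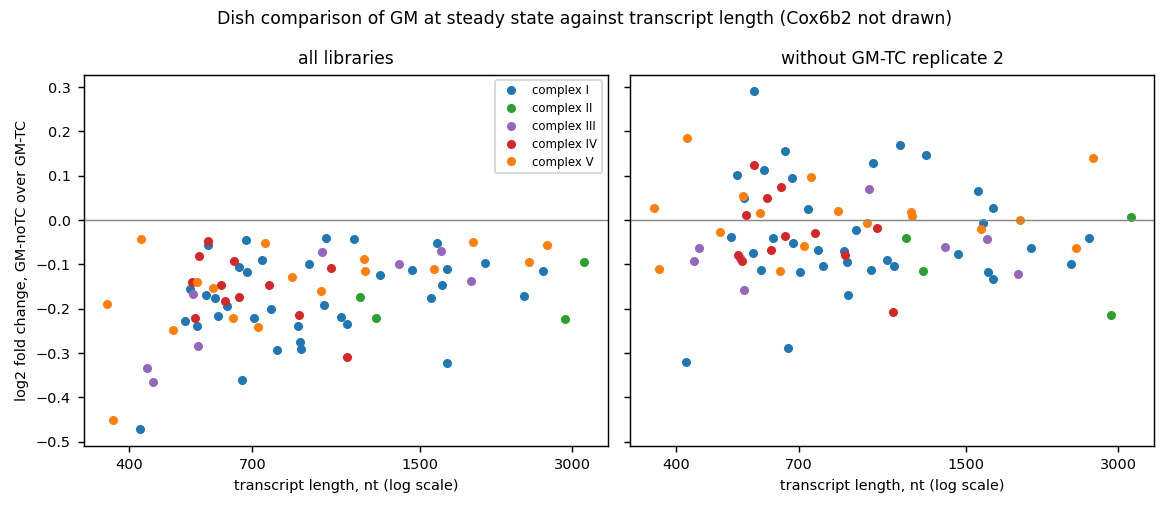
Log2 fold change of GM-noTC over GM-TC at steady state (y axis) against transcript length in nucleotides (x axis, log scale), for each nuclear subunit gene except Cox6b2, coloured by complex, with all libraries (left) and without GM-TC replicate 2 (right). With all libraries each point lies below 0 (median -0.16), and without that replicate the points spread around a median of -0.04.

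Genes known to control the chain were read from a list of 11 regulators. Ppargc1b, a coactivator of mitochondrial genes, measured 12.7 and 8.13 CPM in GM-TC and 3.67 and 3.89 CPM in M-TC at steady state. Upon LPS it measured 3.15 and 3.44 CPM in GM-TC-LPS and 8.61 and 7.61 CPM in M-TC-LPS. It was thus higher in GM at steady state and lower in GM upon LPS, with log2 fold changes upon LPS of -1.64 for GM-TC, -1.26 for GM-noTC, 1.1 for M-TC and 1.82 for M-noTC and differences of responses of -2.74 on TC and -3.07 on noTC, all called. Its relative Ppargc1a measured at most 0.757 CPM. Gabpa, the DNA-binding part of GABP, was lower in GM by -0.41 on TC and -0.36 on noTC at steady state, and Nrf1 by -0.45 and -0.49. Esrra, the estrogen-related receptor alpha, did not pass at steady state, at -0.00 and -0.18. Tfam, which packages mitochondrial DNA, passed the test in none of the growth factor comparisons, at -0.22 to 0.24.

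Upon LPS Gabpa rose in every culture, by 0.54 to 0.80, and Nrf1 rose by 0.75 in GM-TC, 0.69 in GM-noTC and 0.33 in M-TC, and measured -0.07 in M-noTC, on the TMM scale. Esrra rose by 0.76 for GM-noTC, 1.11 for M-TC and 0.81 for M-noTC. The mitochondrial transcription genes Tfb2m and Polrmt fell by 0.76 and 1.01 in M-TC. Pprc1 rose by 0.61 in M-TC, Tfb1m fell by 0.70 there, and Yy1 fell by 0.39. Of the 11 regulators 4 were higher and 3 lower in GM than in M on TC at steady state, near the background of 32.6% and 28.9%.

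Of 8 factors known to act on the chain during activation, 5 rose and 1 fell in GM-TC upon LPS, and 6 rose in M-TC, on the TMM scale. AA467197, the mouse counterpart of human C15orf48 and described as a paralog of Ndufa4 that can take its place in complex IV, measured 3.43 and 3.18 CPM in M-TC and 72.9 and 90.9 CPM in GM-TC. Upon LPS it measured 153 and 174 CPM in M-TC-LPS and 803 and 815 CPM in GM-TC-LPS. It was higher in GM and upon LPS in every comparison of those kinds, with log2 fold changes of 4.63 for GM over M on TC at steady state, 3.30 upon LPS in GM-TC and 5.63 in M-TC. Ndufa4 itself, lower in GM, measured 24.0 to 28.0 CPM in the GM libraries on TC and 31.3 to 40.7 CPM in the M libraries on TC. Nos2, whose product nitric oxide binds complex IV, rose by 9.53 in GM-TC and 11.28 in M-TC. Acod1, which makes the complex II inhibitor itaconate, rose by 6.47 and 6.64, Sod2 by 3.01 and 3.50 and Hif1a by 2.06 and 2.17. Ucp2, an inner membrane carrier, was 0.72 higher in GM on TC at steady state and fell upon LPS by 0.20 in GM-TC. Higd1a and Higd2a, small proteins that associate with complexes III and IV, were 0.54 and 0.50 higher in GM on TC at steady state. Their log2 fold changes upon LPS were 0.30 and 0.08 in GM-TC, neither called, and 0.55, called, and 0.16, not called, in M-TC.

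The other tissue-specific paralogs were near the limit of detection. Over the 16 libraries Ndufa4l2 had 4 counts, Cox4i2 3 counts, and Cox7b2 and Cox8c 0 counts. A count of 0 in a library allows up to 0.0954 to 0.171 CPM, for counting error only.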

How the data were processed

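RNA was measured in 16 libraries of poly(A)-selected RNA from mouse BMDMs. The authors aligned reads with HISAT2 and estimated gene counts with RSEM, and the deposited expected counts were rounded to whole numbers here. The genome build and annotation they used are not given in the sources used here. The deposited table gives totals of 17527805 to 31458374 counts per library, and floors cover counting error only.

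Genes were filtered with filterByExpr, scaled by TMM and fitted over all 8 groups with edgeR 4.0.16's quasi-likelihood test, with Benjamini-Hochberg adjustment over 12514 genes and a threshold of 0.05. The SE is the log2 fold change divided by the root of F. TPM was used only to compare levels between genes. The named genes were those with the largest called changes in each direction of a comparison. Members and lists were chosen with earlier results of these data known. Scripts were tested on simulated data. Alternatives were DESeq2 1.42.0, its size factors, library size alone, no filter, the libraries of one comparison only, a fold threshold, a replicate block and leaving out each library. Replicates are described by the study as biological. Over all tested genes same-numbered samples did not deviate together, so the numbers were not used as pairs. This cannot exclude pairing that acts on few genes.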

Additional observations from a re-analysis of the deposited data

Results flagged for a closer look

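The response to LPS differed between GM and M by the test of the difference of responses for 23 of the 78 nuclear subunit genes on TC and for 10 on noTC, against 41.1% and 36.2% of all tested genes, both higher shares than among the subunit genes. On TC the named genes were Atp5o (-0.55), Ndufa9 (-0.53) and Cox7a2 (-0.50), as GM response minus M response on the log2 scale. On noTC they were Ndufs4 (-0.55), Cox5a (-0.39) and Sdhd (-0.38). With library size alone none of these 6 genes was called. Outside the 78 genes, the 3 heart-type subunits summed to at most 3.88 CPM, in a TC library at steady state.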

How the results depend on the processing

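With 2 replicates a group, each count is open to 1 library, and the scaling decides the direction of the LPS change. The replicate numbers were not used as pairs. Correlations of same-numbered deviations over all tested genes were -0.062 to 0.020, which cannot exclude pairing that acts on few genes. The fit with a replicate block gave 19 genes higher and 4 lower upon LPS for GM-TC and 65 higher and 1 lower for GM over M on TC at steady state, and moved no count by over 1.5 times. Where a value below changed, the cause was not tested. Counts are of the 78 genes, higher then lower.

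With library size alone, LPS counts were 0 and 67 for GM-TC, 1 and 57 for GM-noTC, 0 and 72 for M-TC and 2 and 64 for M-noTC, with medians of -0.4064, -0.3306, -0.5407 and -0.3741. The medians of all tested genes were then -0.5297, -0.5423, -0.8342 and -0.7290. The share of all tested genes called on this scale was not computed for any comparison. The dish count of M upon LPS was 4 and 0 (median 0.04154), growth factor counts at steady state were 30 and 7 on TC and 24 and 11 on noTC, and 5 genes were lower on noTC upon LPS. The growth factor by LPS counts were 6 on TC and 3 on noTC (medians 0.1436 and 0.0594), and the dish by LPS count of M was 1. Genes that turned upon LPS were Uqcrfs1 (-0.06156) and Ndufb6 (-0.1311) for GM-TC, Cox7a2 (-0.05788) and Cox6a1 (-0.1335) for M-TC and Atp5md (-0.1077) for M-noTC.

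With only the libraries of each comparison, 2 genes fell upon LPS in GM-TC and 2 in GM-noTC, the dish counts were 0 lower in GM and 5 and 22 in M at steady state and 1 lower in GM upon LPS, 19 passed for growth factor by LPS on noTC and 2 for dish by LPS in M. With a fold above 1.5 and an unadjusted p, LPS counts were 0 and 0, 2 and 0, 8 and 0, and 4 and 0, dish counts were 0 and 0, and growth factor counts were 24 and 0, 15 and 0, 4 and 0, and 5 and 0. The share of all tested genes at that fold was not computed. DESeq2 gave 1 lower upon LPS in M-noTC, 0 higher between dishes of M upon LPS and 2 lower for growth factor on TC at steady state. With no expression filter 14 were lower between dishes of GM, 11 between dishes of M and 3 for growth factor on TC at steady state. With size factors in edgeR 3 were lower for growth factor on TC at steady state and 4 on noTC upon LPS.

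Leaving out 1 library at a time gave ranges upon LPS of 8 to 40 higher and 1 to 13 lower for GM-TC, 15 to 37 and 1 to 2 for GM-noTC, 39 to 45 and 1 to 2 for M-TC and 45 to 49 and 0 to 1 for M-noTC. Dish ranges at steady state were 1 to 42 lower in GM and 0 to 1 higher and 3 to 6 lower in M, and upon LPS 0 higher and 0 to 3 lower in M. Growth factor ranges were 47 to 70 and 1 to 4 on TC and 45 to 49 and 1 to 2 on noTC at steady state, and 33 to 39 and 2 on TC and 30 to 44 and 1 to 4 on noTC upon LPS. Growth factor by LPS passed for 13 to 43 on TC and 5 to 12 on noTC, and dish by LPS for 0 to 6 in GM and 0 to 1 in M. Medians turned upon LPS for GM-TC without GM-TC replicate 1 (range -0.01139 to 0.1977), between dishes of GM upon LPS without GM-noTC-LPS replicate 2 (-0.1131 to 0.02609, or -0.1226 to 0.02609 relative to all genes), for dish by LPS of GM without GM-TC replicate 2 (-0.01505 to 0.2409, or -0.01531 to 0.227 relative to all genes) and of M without M-noTC-LPS replicate 2 (-0.0113 to 0.06591). Of 59 named gene changes, 5 turned with library size alone and 14 lost their call, and 5 lost it with DESeq2.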
